A study of Mus musculus with 6 samples.

Results

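The genes of voltage-gated sodium channels, voltage-gated calcium channels and hyperpolarisation-activated pacemaker channels were compared between the hearts of mice on a high fat diet (HFD) and on a normal diet (ND). Members were the probes other than controls whose gene name begins with *Scn* and a digit or with *Cacna*, *Cacnb* or *Cacng*, or with *Hcn* and a digit from 1 to 4. There were 44 such genes, of 36163 gene names on the array, and they were read by 63 of its 55681 probes. The hearts came from male C57BL/6 mice that received, from 4 weeks of age and for 4 months, either the HFD with 60% of kcal from fat or the ND, a standard chow. The labels name no transgene or mutant allele in either group. Each diet had 3 hearts, and each heart had its own 1-colour Agilent array. The tissue is given as heart with no part named, and in such bulk RNA fewer cells of a type and less RNA per cell cannot be told apart. All 7 marker genes of working heart muscle and all 5 of ventricular muscle on the lists used here were detected, and none differed between the diets at the unadjusted limit given below.

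Sodium channels carry the rapid upstroke of the action potential in atrial and ventricular muscle, and their pore-forming alpha subunit is joined by beta subunits that set gating and trafficking. L-type calcium channels, built from a pore (*Cacna1c*), a cytoplasmic beta subunit and an extracellular alpha2delta subunit, let in the calcium that triggers contraction, and T-type channels open at more negative potentials. Pacemaker channels open on hyperpolarisation, carry the funny current of the sinoatrial node and bind cyclic AMP.

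Neighbouring beta subunit genes of the sodium channel stood on opposite sides of the comparison, *Scn4b* higher and *Scn2b* lower in HFD. They lie on the same strand of chromosome 9, and their probes are 24.0 kb apart (mm9, the build of the array's probe positions). Neither difference had a limma adjusted p below 0.05 (0.173 for *Scn4b* and 0.248 for *Scn2b*). The RefSeq sequence before each start (GRCm38.p6, plus strand) is shown because the pair differs in direction and in base composition. A link between direction and base composition was not tested. Capitals mark a match to 1 of the 7 motifs searched on both strands.
*Scn4b*, 250 bases before the start, chr9:45138374-45138623: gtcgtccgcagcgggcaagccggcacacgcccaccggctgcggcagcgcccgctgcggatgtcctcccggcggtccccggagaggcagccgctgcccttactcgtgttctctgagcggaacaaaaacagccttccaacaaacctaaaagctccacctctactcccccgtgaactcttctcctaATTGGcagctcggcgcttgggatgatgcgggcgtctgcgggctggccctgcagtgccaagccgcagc
*Scn2b*, 250 bases before the start, chr9:45117626-45117875: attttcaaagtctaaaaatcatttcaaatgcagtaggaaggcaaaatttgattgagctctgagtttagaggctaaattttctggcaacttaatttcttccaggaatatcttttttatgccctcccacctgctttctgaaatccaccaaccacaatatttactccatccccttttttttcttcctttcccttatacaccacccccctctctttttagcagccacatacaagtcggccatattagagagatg
The *Scn4b* stretch had a GC content of 66.0% and 23 CG dinucleotides, and that of *Scn2b* 38.4% and 1. The median GC content was 52.4% over the 32851 promoter stretches of the same length. The capitals in *Scn4b* are a CCAAT box read on the minus strand, 67 bases before the start, and 33.8% of all promoter stretches held one. The other motifs, which had no match in either stretch, were the TATA box (TATAAA), the CRE (TGACGTCA), the E-box (CACGTG), the nuclear receptor site (AGGTCA), the site of GATA factors (AGATAA) and the GC box (GGGCGG). None of them overlaps the CCAAT box. The *Scn4b* probe lies at chr9:44962045-44962104 (mm9) and begins with these 30 of its 60 bases.
*Scn4b* probe: ttcctatctaactttataggcaatacagtg

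Of the 63 probes, 36 (57.1%) for 27 genes were tested, since in at least 1 diet every heart had them well above background, against 49.6% of all probes. All 4 sodium channel beta genes, all 4 calcium channel beta genes and all 3 T-type pore genes were among them, but only 1 of the 4 pacemaker genes, *Hcn2*, and 2 of the 8 gamma genes. A further 20 probes were not well above background in any heart, with intensities up to 20.8, and they left 14 genes without a detected probe. These were *Scn1a*, *Scn9a* and *Scn11a*, pores known from neurons, the pores *Cacna1b*, *Cacna1e* and *Cacna1f*, *Cacna2d4*, *Cacng1* to *Cacng5*, *Cacng8* and *Hcn4*. *Hcn4* encodes the main pacemaker channel of the sinoatrial node, and its intensity lay between 3.87 and 6.61. Of the 7 genes on the sinoatrial node list, *Isl1* and *Shox2* were likewise dim in every heart and *Vsnl1* was not tested, while *Tbx3*, *Tbx18*, *Smoc2* and *Cpne5* were detected and tested, and none of these 4 had an unadjusted limma p below 0.05 between the diets. The other 7 probes passed on some arrays only and were not tested. They included both probes of *Cacna1d*, the other L-type pore of the node, that of *Hcn3*, and 1 probe each of *Cacna1i*, *Cacna2d2* and *Scn2a1*, which had another probe in the test. *Hcn3* was well above background in HFD 2 alone, at 84.9 against 4.31 to 5.54 in the other hearts.

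**Figure D1:**
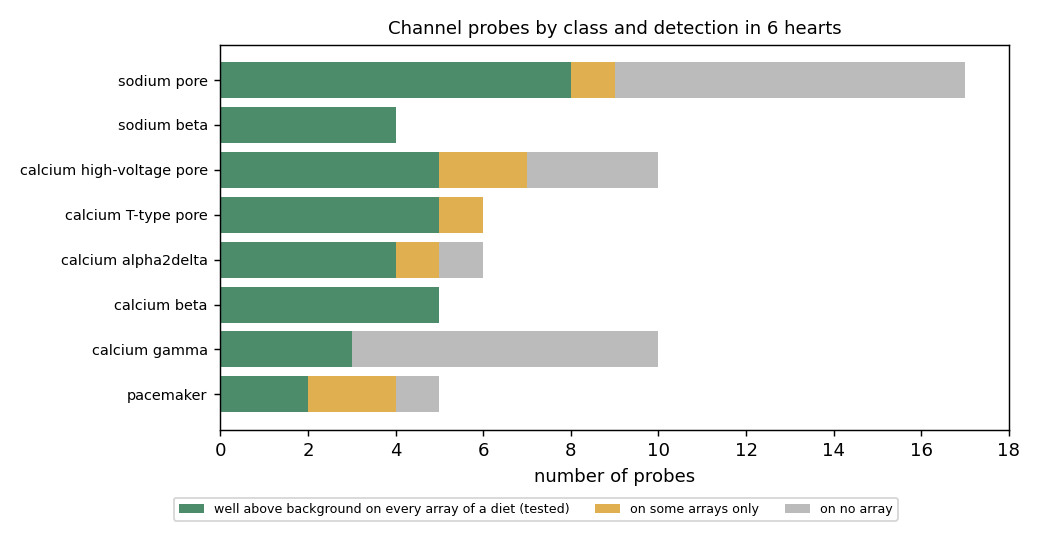
Number of probes per class of channel gene, split into those well above background on every array of a diet and tested (green), on some arrays only (yellow) and on no array (grey). All probes of the sodium and calcium beta subunits were tested, and 7 of the 10 gamma probes were well above background on no array.

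All levels below are log2 intensities relative to the 75th percentile of the same array, and every difference is HFD minus ND. None of the channel probes passed limma's Benjamini-Hochberg adjustment over all 27590 probes tested (smallest adjusted p = 0.166), and 4 probes of the whole array did (0.0145%). The test of the methods on the same values also left 0 channel probes after adjustment. At its own limit it had 2 higher and 6 lower, beside 4.45% of all probes higher and 6.95% lower by that test. The methods use 0.05 as the limit of their own test, and the same number was used here for the unadjusted limma p. At this limit 9 of the 36 probes passed, 3 higher and 6 lower in HFD. They are 25.0% of the channel probes, beside 11.9% of all probes tested in either direction. The 3 higher probes are 8.33% against a background of 5.24%, and the 6 lower ones 16.7% against 6.63%. In all 9 the hearts of the diets did not overlap, with 3 probes above (7.92% of all probes were) and 6 below (11.1%). They stand for 7 genes, of which *Scn4b* and *Cacnb2* were higher, and *Scn2b*, *Scn3a*, *Cacnb1* and *Hcn2* were among the 5 lower ones. Over the 27 genes, with the brightest probe of each, the median log2 fold change was 0.04, beside −0.01 over all probes, and no difference reached 2-fold.

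*Scn4b*, whose product blocks the open pore and is linked to resurgent sodium current, measured 4.04, 3.88 and 3.48 in replicates 1, 2 and 3 of the ND hearts and 4.82, 5.02 and 4.53 in those of the HFD hearts. Each HFD heart was above each ND heart, with means of 3.80 ± 0.29 and 4.79 ± 0.24 (SD, n = 3 each). The difference was 0.99 (SE 0.19, 95% interval 0.53 to 1.45), or 1.99-fold (limma adjusted p = 0.173). By size of increase it held rank 126 of the 27590 probes. An exact two-sided permutation test of this single probe gave p = 0.1, the smallest that 3 against 3 hearts allow. The gene is labelled in the study's heat map, which was drawn from these arrays, so the difference is not independent evidence. HFD 1 and HFD 2 lay on row 1 of the slide and the other 4 arrays on row 2. With the row as a term, the diet difference compares HFD 3 alone with the ND hearts, and it was 0.73. The row cannot be told apart from HFD 1 and HFD 2.

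*Scn2b*, which like *Scn4b* is linked to the alpha subunit by a disulfide bond, had levels of −2.55, −2.65 and −2.43 in the ND hearts and −3.19, −3.09 and −2.84 in the HFD hearts. All HFD values were below all ND values, and the difference was −0.50 (SE 0.12, limma adjusted p = 0.248). *Scn3b*, another beta subunit, overlapped between the diets, with a difference of −0.05 (95% interval −0.42 to 0.31).

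Of the sodium pores, *Scn3a* was lower with both tested probes. This pore is best known from the embryonic brain. Its probe A_55_P2119772 had levels of −2.16, −2.17 and −2.32 in ND and −2.93, −2.56 and −2.87 in HFD, a difference of −0.57 (SE 0.12, limma adjusted p = 0.218). The probe A_66_P106808, 1.56 kb away on chromosome 2, had −1.62, −1.76 and −1.67 against −2.72, −2.22 and −2.03, a difference of −0.64 (SE 0.18, limma adjusted p = 0.287). Both probes read the same gene and are not replicates, and another *Scn3a* probe was dim in every heart. *Scn8a*, a pore of neurons that heart muscle also holds in the transverse tubules, had a difference of −0.21 (SE 0.09, limma adjusted p = 0.439). Its other probes were dim in every heart. Further tested pores, *Scn2a1* (now *Scn2a*), the skeletal muscle pore *Scn4a*, the salt-sensing *Scn7a* and *Scn10a*, differed by −0.56 to 0.30, with overlapping diets.

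**Figure D2:**
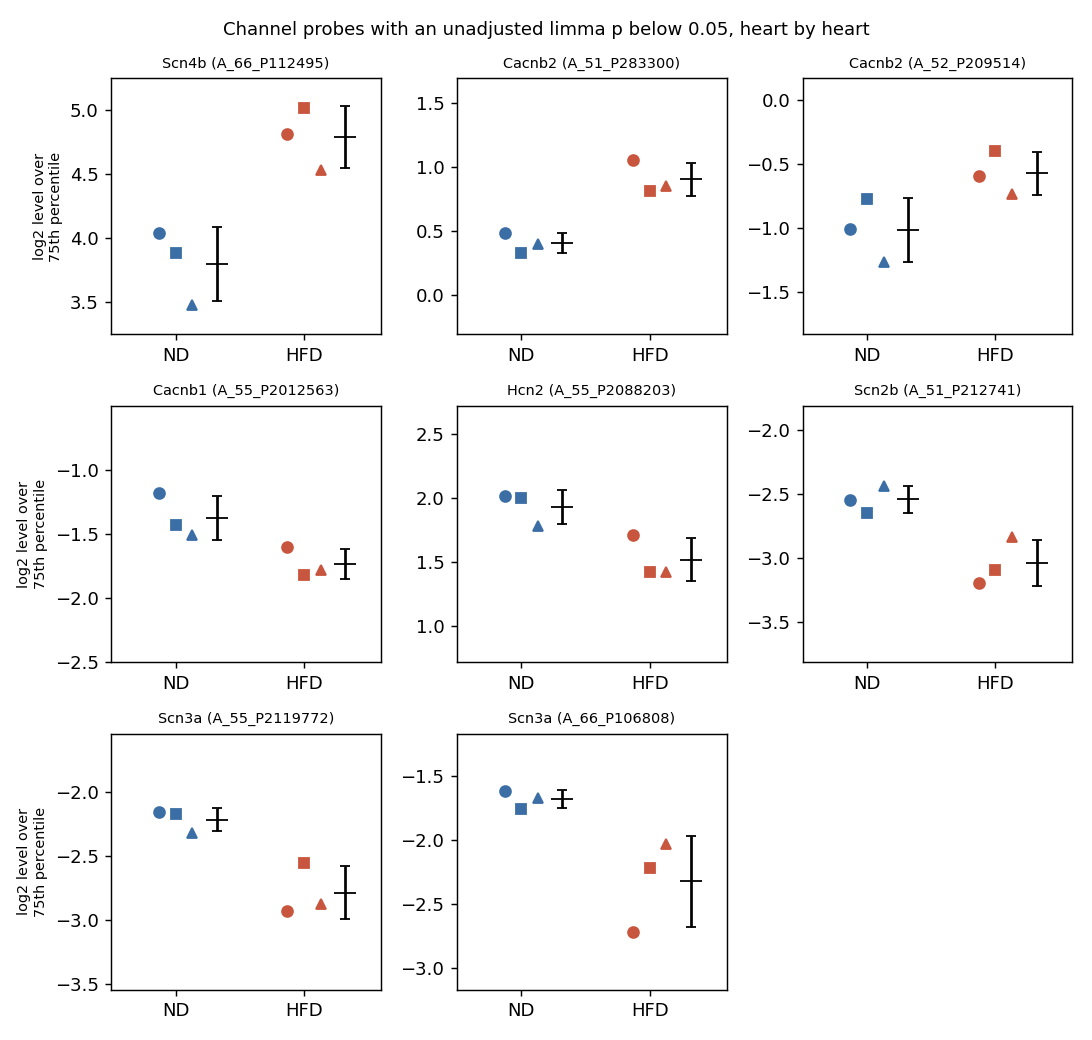
Log2 level relative to the array's 75th percentile of 8 channel probes with an unadjusted limma p below 0.05, each panel spanning 2 log2 units (circle, square and triangle for replicates 1, 2 and 3; blue ND, red HFD; dash and bars, mean ± SD of 3 hearts). *Scn4b* and both *Cacnb2* probes lie higher in all HFD hearts and the other 5 probes lower.

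The calcium channel beta subunits, which bring the pore to the membrane, included the only other gene higher at the unadjusted limit. *Cacnb2*, the main cardiac form, had levels of 0.48, 0.33 and 0.40 in the ND hearts and 1.05, 0.81 and 0.85 in the HFD hearts with its probe A_51_P283300. The diets did not overlap, and the difference was 0.50 (SE 0.09, 95% interval 0.28 to 0.73), or 1.41-fold (limma adjusted p = 0.166). A second probe, A_52_P209514, whose 60 bases map across 3174 bases of chromosome 2 (mm9), had −1.01, −0.77 and −1.27 against −0.59, −0.40 and −0.73. Its difference was of like size, 0.44 (SE 0.15, limma adjusted p = 0.362). *Cacnb1*, the form of skeletal muscle, lay the other way, with −1.18, −1.43 and −1.51 in ND against −1.60, −1.82 and −1.79 in HFD, a difference of −0.36 (SE 0.11, limma adjusted p = 0.329). *Cacnb3* (0.06) and *Cacnb4* (−0.08) overlapped between the diets.

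*Cacna1c*, the cardiac L-type calcium pore, had levels of −2.11, −1.81 and −2.20 in the ND hearts and −1.96, −1.58 and −1.87 in the HFD hearts, which overlap. The difference was 0.24 (95% interval −0.12 to 0.59, limma adjusted p = 0.593). With single hearts left out it ran from 0.13 without HFD 2 to 0.35 without ND 2. *Cacna2d1*, the cardiac alpha2delta subunit, varied little, with levels of 4.48, 4.31 and 4.49 in ND and 4.44, 4.56 and 4.44 in HFD for its brighter probe. Its difference was 0.06, with a 95% interval from −0.14 to 0.26, and that of its other probe 0.03. *Cacna2d3* differed by 0.04. *Cacna1s*, the pore of skeletal muscle, differed by 0.08 and 0.09 with its tested probes, and *Cacna1a*, a pore of nerve terminals, by 0.62 and −0.06, all with overlapping diets. The gamma genes *Cacng6* and *Cacng7* overlapped between the diets as well, with differences from −0.01 to 0.55.

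Among the T-type pores, *Cacna1g* had levels of 0.36, 0.12 and 0.21 in ND and 0.47, 0.05 and 0.33 in HFD with its brighter probe, a difference of 0.05 (95% interval −0.27 to 0.37). *Cacna1h* varied far more. Its brighter probe, A_55_P1986596, measured −0.81, −0.56 and −0.11 in replicates 1, 2 and 3 of ND, against 0.99, −0.75 and 0.59 in those of HFD. HFD 1 and HFD 3 were above every ND heart, while HFD 2 lay among them, so the difference of 0.77 (SE 0.46) did not pass (limma adjusted p = 0.581). Its other probe differed by −0.16 (SE 0.39). *Cacna1i* differed by −0.01.

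**Figure D3:**
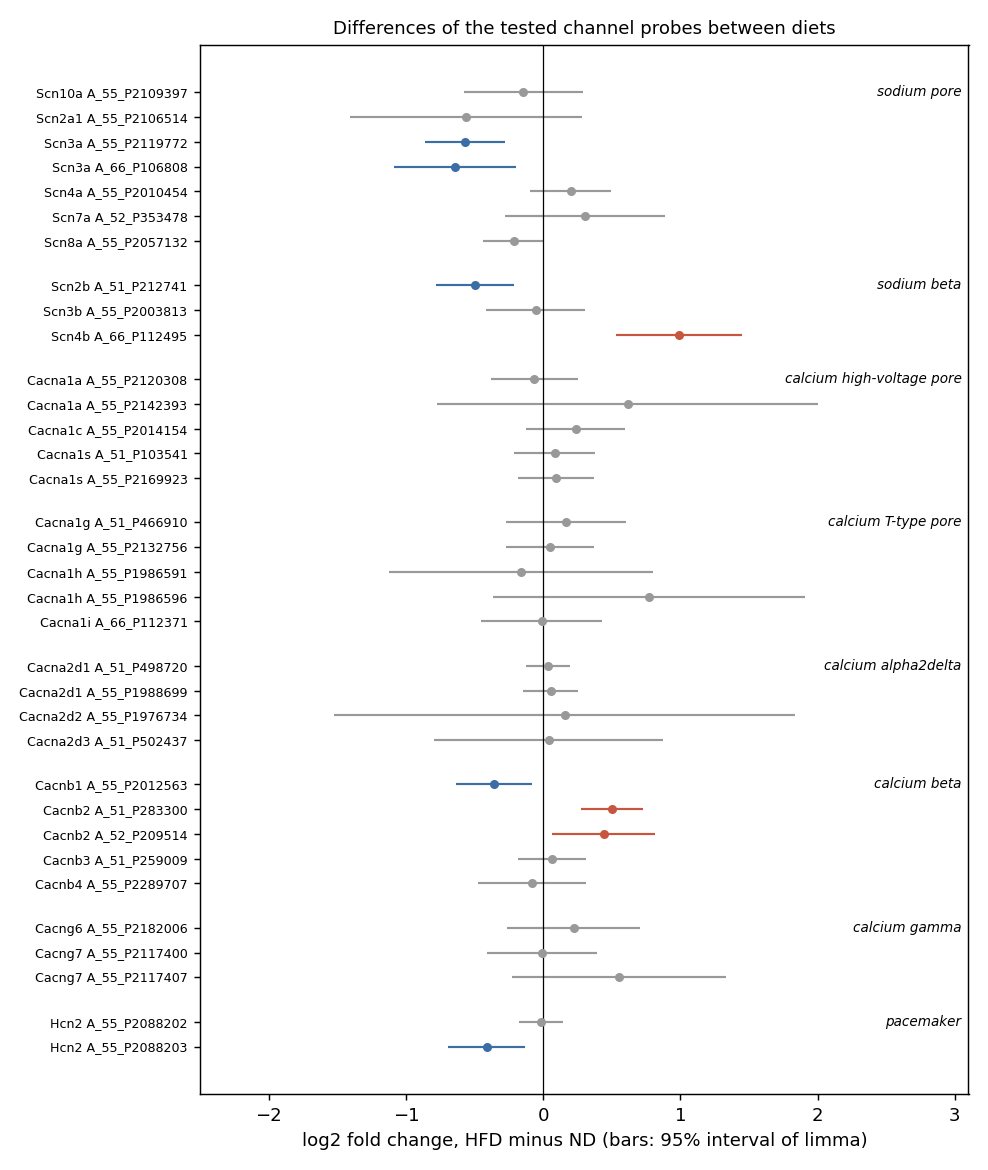
Log2 fold change (HFD minus ND, horizontal axis) of 34 of the tested channel probes with its 95% interval from limma, grouped by class. Red marks the 3 probes higher and blue the 5 lower at an unadjusted p below 0.05, and grey the others, among them the wide intervals of *Cacna1h* and *Cacna2d2*.

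The hearts differed widely in atrial muscle genes, and the channel genes were set against that difference. An atrial score, the mean log2 level of *Nppa*, *Myl4*, *Sln*, *Myl7* and *Dkk3*, was 4.18, 5.39 and 6.85 in the ND hearts and 7.31, 0.92 and 6.28 in the HFD hearts. HFD 2 was thus far below the rest, and the diets overlapped. Other lists varied between the same hearts, by summed linear levels. The fat cell sum was 0.305 in HFD 2 and 2.44 to 6.27 in the others. The smooth muscle sum was 265 in HFD 1 and 112 to 139 in the others. The skeletal muscle sum was 76.6 in HFD 1, 25.9 in HFD 2 and 34.8 to 42.9 in the others. The part of these tissues was not tested. In a fit with diet and the score, chosen after the data were seen, the *Cacna1h* probe A_55_P1986596 was 0.26 higher per unit of score (SE 0.016, limma adjusted p = 0.0567). Its diet difference in that fit was 0.94 (limma adjusted p = 0.0971). Without HFD 2 the slope was 0.28 (adjusted p = 0.753), and the plain diet difference of this probe was 1.28 (limma adjusted p = 0.274), against 0.41 without HFD 1 and 0.30 with the probes of the gene averaged. The other *Cacna1h* probe, A_55_P1986591, had a slope of −0.14 and a diet difference of −0.25 in the fit with the score, and its slope was 0.23 without HFD 2.

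*Cacna2d2*, an alpha2delta subunit, had levels of 0.10, 0.51 and 0.22 in ND against 1.75, −1.10 and 0.64 in HFD, and its slope on the score was 0.36 (SE 0.08, limma adjusted p = 0.246). *Cacna2d3*, of the same subunit family, measured −3.08, −2.89 and −2.94 in ND and −2.61, −3.74 and −2.44 in HFD, and its slope was 0.18 (SE 0.04, limma adjusted p = 0.224). Both slopes were smaller without HFD 2, at 0.17 and 0.02. Slopes below 0 were measured as well, at −0.09 for *Cacnb4* (limma adjusted p = 0.181), −0.06 for *Scn3a* with A_55_P2119772 (0.251), −0.06 and −0.05 for *Cacna1s*, and −0.27 for 1 probe of *Cacna1a*, which had 0.18 without HFD 2. At an unadjusted p below 0.05, 5 of the 36 channel probes rose with the score, beside 5.49% of all probes, and 6 fell, beside 7.92%. None of the 36 channel probes passed the adjusted limit for the slope, which 6 of the 27590 probes did (0.0217%). The difference of *Scn4b* with the score in the fit was 0.94 (limma adjusted p = 0.142), and 4 channel probes were then higher and 7 lower at an unadjusted p below 0.05, beside 6.56% and 8.57% of all probes. The part of the atrial share of the tissue in these differences was not tested.

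**Figure D4:**
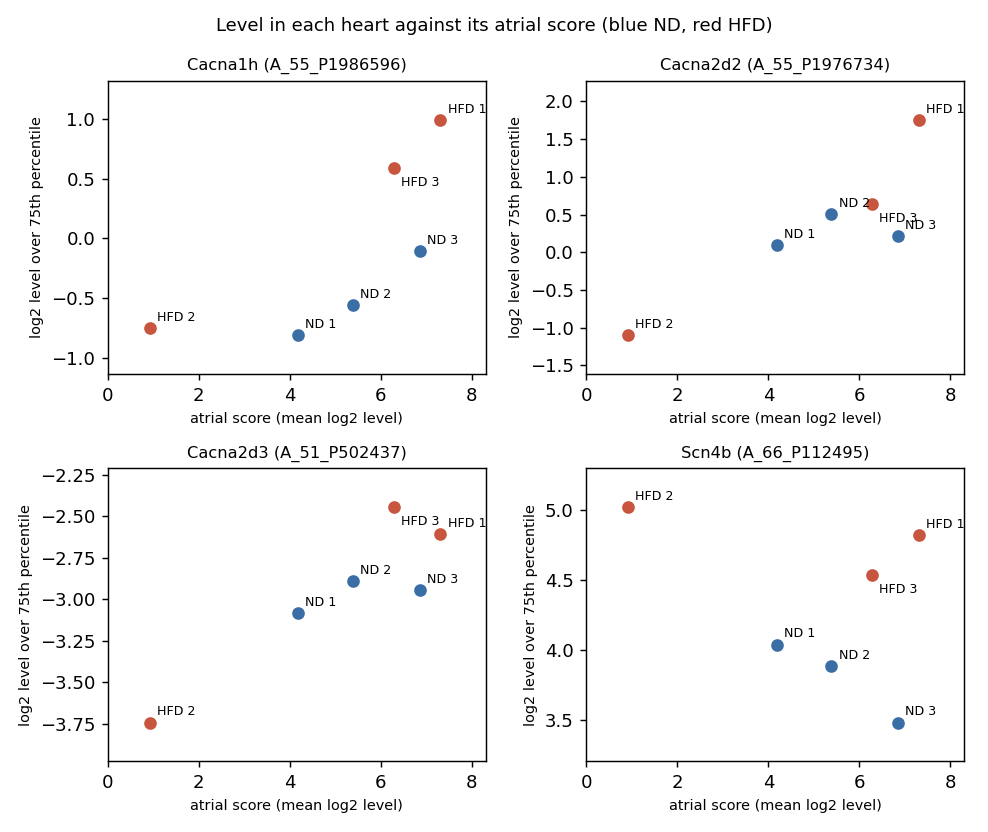
Log2 level of *Cacna1h*, *Cacna2d2*, *Cacna2d3* and *Scn4b* (vertical axes) against the atrial score (horizontal axis, mean log2 level of 5 atrial genes), 1 point per heart. HFD 2, at a score of 0.92, is the lowest heart for *Cacna2d2* and *Cacna2d3* and the highest for *Scn4b*, while the *Scn4b* levels of all HFD hearts lie above those of all ND hearts.

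The only tested pacemaker gene, *Hcn2*, whose channel contributes to the funny current in mouse node and ventricle, gave discordant probes. They are shown because they lie 120 bases apart on the plus strand of chromosome 10 (mm9).
A_55_P2088203, chr10:79198592-79198651: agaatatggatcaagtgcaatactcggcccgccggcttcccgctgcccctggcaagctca
A_55_P2088202, chr10:79198412-79198471: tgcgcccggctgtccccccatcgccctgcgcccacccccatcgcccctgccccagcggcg
With A_55_P2088203, the ND hearts measured 2.01, 1.995 and 1.78, while the HFD hearts measured 1.71, 1.42 and 1.42. Every HFD heart was below every ND heart, with a difference of −0.41 (SE 0.12, limma adjusted p = 0.287). With the brighter A_55_P2088202 they were 5.35, 5.33 and 5.41 against 5.29, 5.39 and 5.36, a difference of −0.02 (SE 0.07, 95% interval −0.18 to 0.14). The GC content of the probes was 60.0% and 81.7%, and its part in the disagreement was not tested. The call for *Hcn2* rests on 1 probe.

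Of the 51 genes on lists of channel partners and conduction regulators, 45 were tested, and 8 (17.8%) had an unadjusted limma p below 0.05, 3 higher and 5 lower, beside the 11.9% of all probes. None passed the adjustment. Among the sodium channel partners, *Gpd1l*, a modifier of sodium current, had a difference of −0.28 (SE 0.07, limma adjusted p = 0.265) and *Rangrf*, a trafficking partner of sodium channels, one of −0.27 (SE 0.08). The small GTPases that restrain calcium channels through their beta subunit split, with *Gem* higher (0.65, SE 0.20) and *Rrad* lower (−0.43, SE 0.14). *Calm2*, one of the calmodulin genes, was higher by 0.23 (SE 0.10). Of the transcription factors, *Gata4* was higher (0.29, SE 0.09), and the Iroquois factors *Irx3* (−0.67, SE 0.25), known from the ventricular conduction system, and *Irx5* (−0.57, SE 0.16) were lower. Only for *Irx3* did the diets overlap, and none of the 6 tested partners of the pacemaker channels passed.

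Other gene groups differed between the diets in the same hearts, with no gene of them past the adjustment. HFD hearts had higher means for all 10 tested immediate early genes, with summed linear levels of 11.3 to 25.3 in ND and 39.3 to 96.2 in HFD, and 7 of them passed the unadjusted limit. For the red cell list, all 5 tested genes had lower means, with sums of 577 to 737 in ND and 367 to 514 in HFD, and 4 passed it. The neuron list, which matters here since several sodium pores are neuronal, had sums of 25.4 to 26.7 in ND and 29.4 to 30.8 in HFD, with means of 4 of its 6 tested genes above and 2 below those of ND, and *Chrna3* and *Syt1* were dim in every heart. Of these 6 genes, *Gap43* passed the unadjusted limit higher, and *Stmn2* (−0.35) and *Th* (−0.25) passed it lower. *Snap25*, the brightest of them and so the largest part of the neuron sums, differed by 0.20 and did not pass the limit. The part of these groups in the channel differences was not tested.

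Some calls changed when a single heart was left out or another setting was used. Without HFD 2, 7 channel probes were higher at an unadjusted limma p below 0.05, those of *Scn4b*, *Cacnb2*, *Cacna1g*, *Cacna1h*, *Cacna2d2*, *Cacna2d3* and *Scn2a1*, and 7 were lower. These are counts of 39 channel probes tested without that heart, beside 5.35% of all probes higher and 7.26% lower. *Cacnb1* missed the limit without ND 1 (difference −0.26), without HFD 2 (−0.32) and without HFD 3 (−0.33). The second *Cacnb2* probe missed it without ND 1, ND 3, HFD 1 or HFD 2 (0.32 to 0.45), by the methods' test and with array weights (0.34). With the slide row as a term, 3 channel probes were lower at an unadjusted limma p below 0.05, *Hcn2* and *Scn3a* (A_55_P2119772) among them, and 3 were higher, those of *Scn4b*, *Cacnb2* (A_51_P283300) and *Scn7a*, beside 4.69% of all probes lower and 3.06% higher. *Scn2b* had −0.29 and *Scn3a* −0.35 with A_66_P106808 in that fit, and neither passed. With normexp background correction, *Scn3a* had −0.35 with A_55_P2119772 and *Scn2b* −0.27, and both passed the unadjusted limit.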

How the data were processed

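RNA of 3 ND and 3 HFD hearts was measured on 6 single-colour (Cy3) Agilent arrays. The authors deposited linear intensities from Feature Extraction 10.7.1.1, which had removed a spatial trend and the background of each spot but had not scaled the arrays to each other. They also deposited a table of log2 values whose making is not given in the sources used here. Each of its columns had a median of 4.56 and followed its own array more closely than any other (Spearman's rho at most 0.954 with another array), and it served as an alternative. The mice of a diet were separate animals as far as the labels say, so p-values measure the spread between these hearts.

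Control spots and the 127 to 190 outlier-flagged spots per array (5 on channel probes over all arrays) were left out, spots of 1 probe were averaged, and no spot was saturated. The 75th percentile of each array (453 to 544) was subtracted on the log2 scale. A probe was tested if all hearts of 1 diet or both had it well above background and if each diet had at least 2 measured values. The diets were compared by limma 3.58.1 under R 4.3.3 (eBayes after lmFit, two-sided), and p-values were adjusted by Benjamini-Hochberg across the 27590 tested probes. The arrays had 27405 to 29469 probes well above background, and a comparison of 3 with 3 hearts limits the precision. data.table (1.17.8), jsonlite 2.0.0, statmod 1.5.0, Python 3.11.15 and matplotlib 3.10.9 were also used.

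Members and lists were chosen with earlier results of these data known. Levels per heart are given for *Scn4b*, for probes at an unadjusted p below 0.05 and for the main channels of heart muscle and node, and partner genes are named at an unadjusted p below 0.05. The separate results of some members are not reported here, though they count in the totals. Lists used the brightest probe of each gene. The 14 marker lists were reduced to counts and sums. Genes are named as on the array, and 60 of the 63 channel probes had a RefSeq symbol. Sequences are those of the array design and of RefSeq (GRCm38.p6), and the place of the probes within exons was not analysed here. The code was tested on simulated data.

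As alternatives, the values were quantile normalized, corrected by normexp (offset 50), tested without the filter on dim probes or with only those detected on all arrays, or taken from the authors' log2 table. The test was replaced by that of the methods, by robust variances with a trend, by weighted arrays, or by fits with replicate number, slide row or atrial score. Hearts were left out singly, probes of a gene were averaged, and outlier spots were kept.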

Additional observations from a re-analysis of the deposited data

How the results depend on the processing

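The log2 fold change of *Scn4b* stayed between 0.73 and 1.12, with an unadjusted p below 0.05, under all 19 alternatives, and its adjusted p ranged from 0.0848 to 0.586. No channel probe passed the adjustment under any of them. The count of higher channel probes ran from 2 to 7 and that of lower ones from 4 to 7 when a heart was left out, the 7 higher ones without HFD 2. These are counts of 36 to 39 channel probes tested, beside 3.67% to 6.2% of all probes higher and 4.15% to 7.26% lower. The fit with the slide row rests on HFD 3 alone among the HFD hearts, so its counts are left out of these ranges. No conclusion is drawn from those counts, which are given above. Leaving out a heart gave 5 to 10 partner genes with an unadjusted limma p below 0.05, the 5 without ND 1. The cause was not tested. The sign turned only for small differences. The brighter *Hcn2* probe had 0.026 with quantile normalization, 0.023 in the authors' table and −0.038 to 0.0092 with a heart left out. With a heart left out, *Cacna2d1* had −0.0026 to 0.087 and *Cacna1g* −0.042 to 0.17. The fit with the atrial score was chosen after seeing the data. Replicate numbers were not taken as pairs, since same-numbered hearts deviated together with correlations of −0.15, 0.15 and 0.19. With the replicate number as a block, 4 channel probes were higher at the unadjusted limit, *Cacna1c* (0.24) now among them, and 6 lower. Of all probes, 5.06% were higher and 5.89% lower in that fit. *Scn4b* had 0.99 there (limma adjusted p = 0.275). For 20 dim probes the arrays give only a bound.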

Other observations

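Among the partner genes that passed no test between the diets, *Fgf12*, a fibroblast growth factor homologue that binds the tail of sodium channels, differed most between hearts. Replicates 1, 2 and 3 of ND measured −3.10, −1.39 and 0.57, while those of HFD measured 1.22, −4.53 and −0.12. HFD 2, the heart with the lowest atrial score, was the lowest for this gene. *Cacna1a*, the P/Q-type calcium pore of nerve terminals, had 0.21 in HFD 2 with its probe A_55_P2142393, against −2.02 to −1.56 in the other 5 hearts, and its other tested probe of the same gene had −3.51 in HFD 2 and −3.55 to −3.11 in the others. The difference between these probes in HFD 2 was seen after the values were known and was not tested.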
